A study of Arabidopsis thaliana with 24 samples.

Results

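Phototropins are blue light receptor kinases of the plant plasma membrane. In leaves they steer chloroplasts within the cell, open stomata, and bend growth toward light, and *PHOT2* is best known for moving chloroplasts away from strong light. UV-C is radiation that damages DNA and gives rise to reactive oxygen species, and it is followed within minutes by the induction of stress transcription factors. The comparison described here asks which transcripts responded to UV-C differently when *PHOT2* was mutated. For each gene it takes the UV-C effect in *phot2* (UV-C minus non-treated) and subtracts the UV-C effect in the wild type, and this difference is called the interaction. A positive interaction means a higher UV-C effect in *phot2*, which can be a stronger induction or a weaker fall.

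The comparison used 12 of the 24 RNA-Seq libraries of the series, 3 biological replicates in each of 4 groups of *Arabidopsis thaliana*. The groups were the wild type and the *phot2* mutant, each left non-treated or taken 30 min after UV-C irradiation (100 mJ cm-2). All plants, controls included, were in the Col-0 gl1 background, which carries the glabrous1 mutation and forms no trichomes, and grew under an 8 h photoperiod. A replicate pooled at least 4 whole rosettes, from plants aged 4 weeks by the sample labels and 3 weeks by the methods. The allele of *phot2* is not given in the sources used here. The hour of harvest is not given in the sources used here. In whole rosettes, fewer cells of a type and less RNA per cell cannot be told apart.

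The libraries held 34496078 to 41902444 counts without treatment and 20897905 to 25560151 after UV-C. Mesophyll markers (*RBCS1A*, *LHCB1.2*, and *RCA*) summed to 26990 to 32200 CPM over the 12 libraries, although the mean of *LHCB1.2* went from 1032 to 4447 CPM after UV-C in the wild type and from 1564 to 6058 CPM in *phot2*, and that of *RBCS1A* from 19440 to 16020 CPM and from 17900 to 14290 CPM. Of the root markers, *RHD6* was at 0 in all 12 libraries, *COBL9* at most 0.0933 CPM, and *CASP1* at most 0.0551 CPM. Levels are given as CPM, counts scaled to library size, after TMM scaling, so that every library has the same effective total. The mutated transcript was read first. *PHOT2* (AT5G58140), which overlaps another gene on the opposite strand, was at 425, 432, and 435 CPM in the non-treated wild type and 268, 273, and 248 CPM in non-treated *phot2* (log2FC −0.71, SE 0.06, edgeR adjusted p = 2.14e-07). After UV-C it was at 340.0, 364, and 375 CPM in the wild type and 243, 224, and 241 CPM in *phot2*. The mutant libraries lay below the wild type under both treatments, and reads of the gene were still counted in them. Neither *PHOT2* (interaction log2FC 0.10, SE 0.09, edgeR adjusted p = 0.674) nor *PHOT1* (interaction log2FC 0.21, SE 0.11, edgeR adjusted p = 0.43) passed the test of the interaction.

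Of the protein-coding genes tested, 74 differed in their UV-C effect between *phot2* and the wild type (0.368%), with 40 higher (0.199%) and 34 lower (0.169%) in *phot2*. These were the genes with an adjusted p under 0.01 and an absolute interaction log2FC over 1 in the quasi-likelihood test of edgeR, with p-values adjusted by the Benjamini-Hochberg method over all tested genes, written below as edgeR adjusted p. Without the limit on size, 216 genes (1.07%) had an adjusted p under 0.01, and 2840 (14.1%) had an unadjusted p under 0.05. By the same rule UV-C changed 1854 genes in the wild type (9.23%), 1382 of them up (6.88%) and 472 down (2.35%), and 2058 in *phot2* (10.2%), 1587 up (7.9%) and 471 down (2.34%). The median interaction over all tested genes was 0.00 on the log2 scale, as was the median UV-C effect in the wild type, with 0.01 in *phot2*. The balance of directions was not stable. It was 81 higher and 136 lower in a likelihood ratio test with robust dispersions, the kind of test the study's methods name. It was 57 and 76 in DESeq2, and 35 and 40 in edgeR with the 12 libraries alone. Without non-treated wild-type replicate 2 it was 32 and 43, and without UV-C *phot2* replicate 2 it was 31 and 18. With each of the 12 libraries left out in turn, 46 to 75 genes were called, and 25 of the 74 were called each time (14 higher and 11 lower).

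Among the 40 genes with a higher UV-C effect in *phot2*, 23 had a negative fitted effect in the wild type and a positive one in *phot2*, 9 were positive in both, and 8 negative in both. UV-C alone passed the test in *phot2* only for 14 of them, in the wild type only for 7, in both for 5, and in neither for 14. Of all tested genes 10.2% passed it in *phot2* and 9.23% in the wild type. The overlap of the 2 was not counted over all genes. The distance between the genotypes was larger after UV-C than before it for 38 of the 40, with group ranges apart after UV-C in 38 (29.5% of all tested genes) and before it in 16 (27%). Of the 40, 27 passed the test of *phot2* against the wild type after UV-C (2.06% of all tested genes did) against 1 without treatment (0.831%). The 34 genes with a lower UV-C effect in *phot2* were 16 with a positive fitted effect in the wild type and a negative one in *phot2*, 8 positive in both, and 10 negative in both. For 11 of the 34, UV-C alone passed the test in *phot2* only, for 2 in the wild type only, for 9 in both, and for 12 in neither. For 25 of them the genotypes lay further apart after UV-C and for 9 before it, with group ranges apart after UV-C in 32 and before it in 20, and 11 and 5 passed the test between genotypes. The median interaction was 1.34 among the higher and −1.30 among the lower genes, values that the rule for calling fixes in part. That rule also fixes in part the gaps, the ranges apart, and the tests given here, which use the same libraries. These counts describe the called genes and are no separate evidence of a difference.

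**Figure D1:**
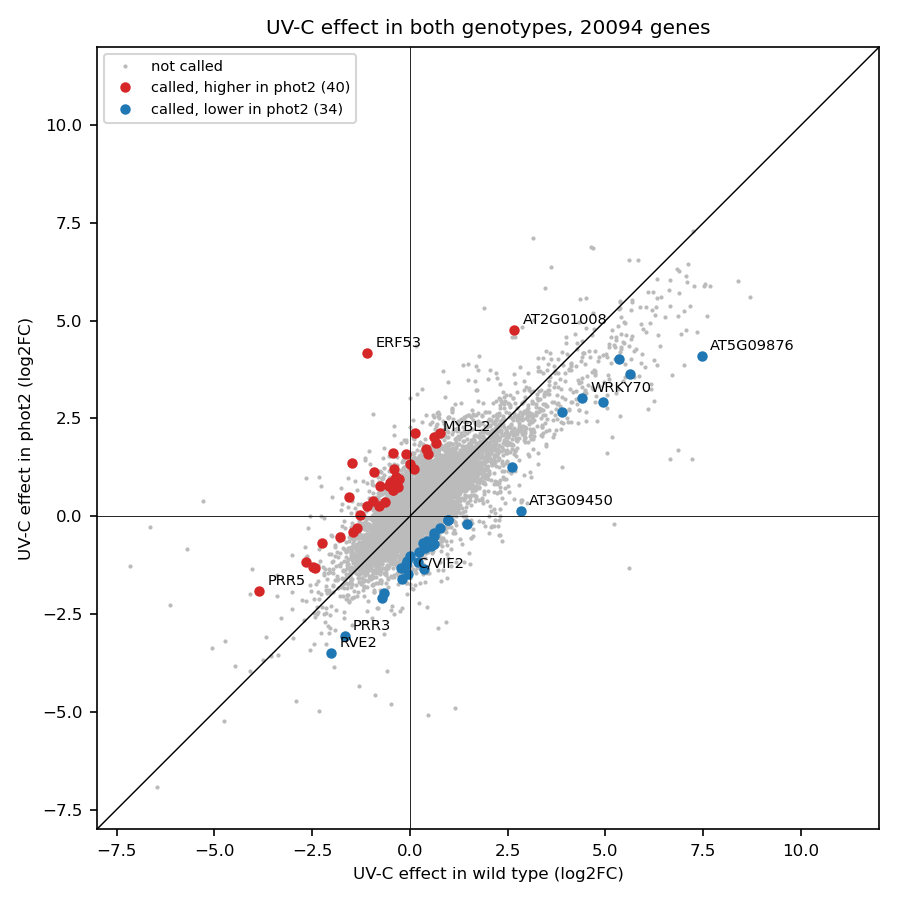
UV-C effect (log2FC) in the wild type on the horizontal axis and in *phot2* on the vertical axis, 1 point a tested gene. Red points are the 40 genes called higher and blue points the 34 called lower in *phot2*, and the line marks equal effects. *ERF53* stands at −1.09 in the wild type and 4.18 in *phot2*.

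The 74 promoters were read from the reference genome, to show what sequence the genes share beside their response. Windows of 300 bases, from 250 before to 50 after the annotated start, were searched on both strands for 9 motifs. The evening element AAAATATCT, which MYB-like clock factors bind, was in 6 of the 40 promoters of the higher genes (15%), in 2 of the 34 of the lower genes (5.88%), and in 604 of 20093 promoters of tested genes (3.01%). The related CCA1-binding site AAAAATCT, whose letters do not contain the evening element, was in 6 (15%), 4 (11.8%), and 8.03% of all. The DRE core CCGAC, bound by CBF and DREB factors, was in 8 (20%), 5 (14.7%), and 16.1% of all. The W-box TTGACT was in 9 (22.5%), 11 (32.4%), and 21.9% of all, the W-box TTGACC in 15%, 14.7%, and 14.4%, and the G-box CACGTG in 7.5%, 8.82%, and 8.85%. GCCGCC (GCC-box) and CGCGTT (rapid stress response element) were in 0 of the 40 and in 2 of the 34 each (5.88%), against 2.59% and 3.81% of all, and GAANNTTC (heat shock element core) was in 4 of the 40 (10%), 6 of the 34, and 11.4% of all. These counts are a description and were not tested.

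The 2 lower genes with an evening element, *Cand1* and *AT1G77020*, are not printed. The 6 stretches of the higher genes are shown because they include *ERF53*, which had the largest interaction among the called genes, and the clock gene *PRR5*. Each is 120 bases around the element, in the TAIR10.1 build, read 5′ to 3′ along the strand of the gene, with the evening element in capitals. It stands as written in *AT5G43440* and *AT4G30650* and on the opposite strand in the others, and begins 35 to 221 bases before the start.
*ERF53*, chr2:8985828-8985947, plus strand: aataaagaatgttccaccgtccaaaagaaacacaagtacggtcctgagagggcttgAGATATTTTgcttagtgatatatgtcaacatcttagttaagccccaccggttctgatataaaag
*AT5G43440*, chr5:17456696-17456815, minus strand: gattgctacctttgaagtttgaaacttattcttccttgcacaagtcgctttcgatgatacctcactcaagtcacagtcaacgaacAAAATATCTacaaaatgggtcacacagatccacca
*AT4G30650*, chr4:14954084-14954203, plus strand: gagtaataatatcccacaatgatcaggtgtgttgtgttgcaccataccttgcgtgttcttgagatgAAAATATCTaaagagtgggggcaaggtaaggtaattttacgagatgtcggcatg
*PRR5*, chr5:8358670-8358789, minus strand: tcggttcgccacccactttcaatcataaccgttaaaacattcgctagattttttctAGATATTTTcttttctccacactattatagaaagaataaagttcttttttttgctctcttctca
*MYBL2*, chr1:26796663-26796782, minus strand: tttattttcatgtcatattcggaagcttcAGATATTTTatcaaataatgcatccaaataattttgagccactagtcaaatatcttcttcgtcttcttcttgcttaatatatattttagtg
*CYP71B26*, chr3:9634896-9635015, minus strand: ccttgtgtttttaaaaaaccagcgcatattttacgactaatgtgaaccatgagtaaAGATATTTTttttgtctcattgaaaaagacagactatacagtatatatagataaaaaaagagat

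*ERF53* (AT2G20880, chromosome 2, 8985959 to 8987302), which encodes a transcription factor of the DREB group of AP2/ERF proteins known from drought responses, had the largest interaction among the 74 genes. It was measured at 0.136, 0.124, and 0.841 CPM in the non-treated wild type, 0.0468, 0.28, and 0.165 CPM in the wild type after UV-C, 0.292, 0.117, and 0.382 CPM in non-treated *phot2*, and 4.39, 4.63, and 5.42 CPM in *phot2* after UV-C. The 3 *phot2* libraries after UV-C stood above all 9 others, which did not exceed 0.841 CPM (31 reads). UV-C raised it in *phot2* (log2FC 4.18, SE 0.52, edgeR adjusted p = 8.99e-07), while the effect in the wild type did not pass the test (log2FC −1.09, edgeR adjusted p = 0.305). The difference passed (interaction log2FC 5.27, SE 0.97, edgeR adjusted p = 0.00352), and it was lost without non-treated wild-type replicate 3, UV-C wild-type replicate 1 or 3, or non-treated *phot2* replicate 2, over a range of 3.86 to 5.94. Another AP2/ERF gene, *ERF54* (AT4G28140), averaged 0.767 and 0.372 CPM in the wild type and 1.17 and 2.97 CPM in *phot2* before and after UV-C. It did not pass the limit of 0.01 (interaction log2FC 2.36, SE 0.64, edgeR adjusted p = 0.0466).

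The list of CBF and DREB factors, which switch on cold and drought genes through the DRE, held 11 tested members. *ERF53* was called higher and none lower, against 0.199% and 0.169% of all tested genes. The interaction was positive for 9 of the 11, against 9985 of 20094 over all tested genes. Of the 11, 3 had an unadjusted p under 0.05 (14.1% of all tested genes). The median interaction was 1.25 on the log2 scale, against 0.00 over all tested genes. *CBF3*, a cold-induced activator, went from a mean of 0.449 to 2.89 CPM in the wild type and from 0.399 to 9.65 CPM in *phot2* (interaction log2FC 1.89, SE 0.68, edgeR adjusted p = 0.168). Its paralog *CBF2* had an interaction log2FC of −0.18 (SE 0.57, edgeR adjusted p = 0.937). Neither passed the test, and reads shared by these paralogs were not counted.

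Genes that protect cells in cold and dehydration, many of them targets of the CBF factors, formed the list with the next highest median. Of its 14 tested members, *ERD10* and *COR47* were called higher and none lower, 12 were positive, and the median interaction was 0.82 on the log2 scale. An unadjusted p under 0.05 was found for 9 of the 14 (14.1% of all tested genes). *ERD10* (AT1G20450, chromosome 1, 7087903 to 7089606) encodes a dehydrin, a hydrophilic protein that guards membranes and proteins in drying cells. Its level was 68.2, 84.8, and 82 CPM in the non-treated wild type, 120.4, 139, and 116 CPM in the wild type after UV-C, 71.8, 69.6, and 95 CPM in non-treated *phot2*, and 308, 298, and 263 CPM in *phot2* after UV-C. The *phot2* libraries after UV-C were at least 263 CPM and all others at most 139 CPM. UV-C raised it in *phot2* (log2FC 1.88, SE 0.13), with log2FC 0.68 in the wild type, a size under the limit for a call, and the difference was called in every fit with 1 library left out (interaction log2FC 1.2, SE 0.18, edgeR adjusted p = 0.000883).

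*COR47* (AT1G20440, chromosome 1, 7084409 to 7086873), a dehydrin next to *ERD10* on chromosome 1, was at 138, 161, and 147 CPM in the non-treated wild type, 150.1, 200.5, and 129 CPM in the wild type after UV-C, 153, 144, and 149 CPM in non-treated *phot2*, and 412, 297, and 323 CPM in *phot2* after UV-C. Non-treated libraries of both genotypes overlapped, and the *phot2* libraries after UV-C lay above every other library (interaction log2FC 1.11, SE 0.19, edgeR adjusted p = 0.00215). This call was lost without UV-C wild-type replicate 3 or UV-C *phot2* replicate 1, with a range of 0.96 to 1.3. *AT4G30650* (chromosome 4, 14954204 to 14955114), annotated as a low temperature and salt responsive protein, was at 12.7, 12.9, and 11.7 CPM in the non-treated wild type, 8.19, 6.62, and 5.02 CPM in the wild type after UV-C, 6.75, 6.31, and 5.86 CPM in non-treated *phot2*, and 22.9, 7.81, and 11.3 CPM in *phot2* after UV-C. UV-C *phot2* replicate 1 stood far above the other 2, and the *phot2* range after UV-C overlapped both wild-type ranges. The interaction (interaction log2FC 2.04, SE 0.39, edgeR adjusted p = 0.00396) was lost without non-treated wild-type replicate 1, UV-C wild-type replicate 2 or 3, or any non-treated *phot2* replicate, with a range of 1.51 to 2.33.

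Some other members of the cold and dehydration list had interactions of like or larger size with a larger SE. *RD29A* went from a mean of 10.8 to 29.8 CPM in the wild type and from 11.3 to 126 CPM in *phot2* (interaction log2FC 2.01, SE 0.47, edgeR adjusted p = 0.0184). *COR15A*, which encodes a chloroplast protein of freezing tolerance, went from 25.1 to 99.9 CPM and from 22.9 to 262 CPM (interaction log2FC 1.51, edgeR adjusted p = 0.0912). *RAB18*, an abscisic acid-responsive dehydrin, fell from 8.09 to 2.85 CPM in the wild type and was at 8.24 and 8.74 CPM in *phot2* (interaction log2FC 1.58, edgeR adjusted p = 0.0355). None of these 3 passed the limit of 0.01 for the interaction. Further members had smaller values. With each library left out in turn, the interaction log2FC of *COR15B* was 0.42 to 0.71 and that of *COR6.6* (AT5G15970) 0.35 to 0.73. Of the 14 tested members, 2 had a negative interaction.

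**Figure D2:**
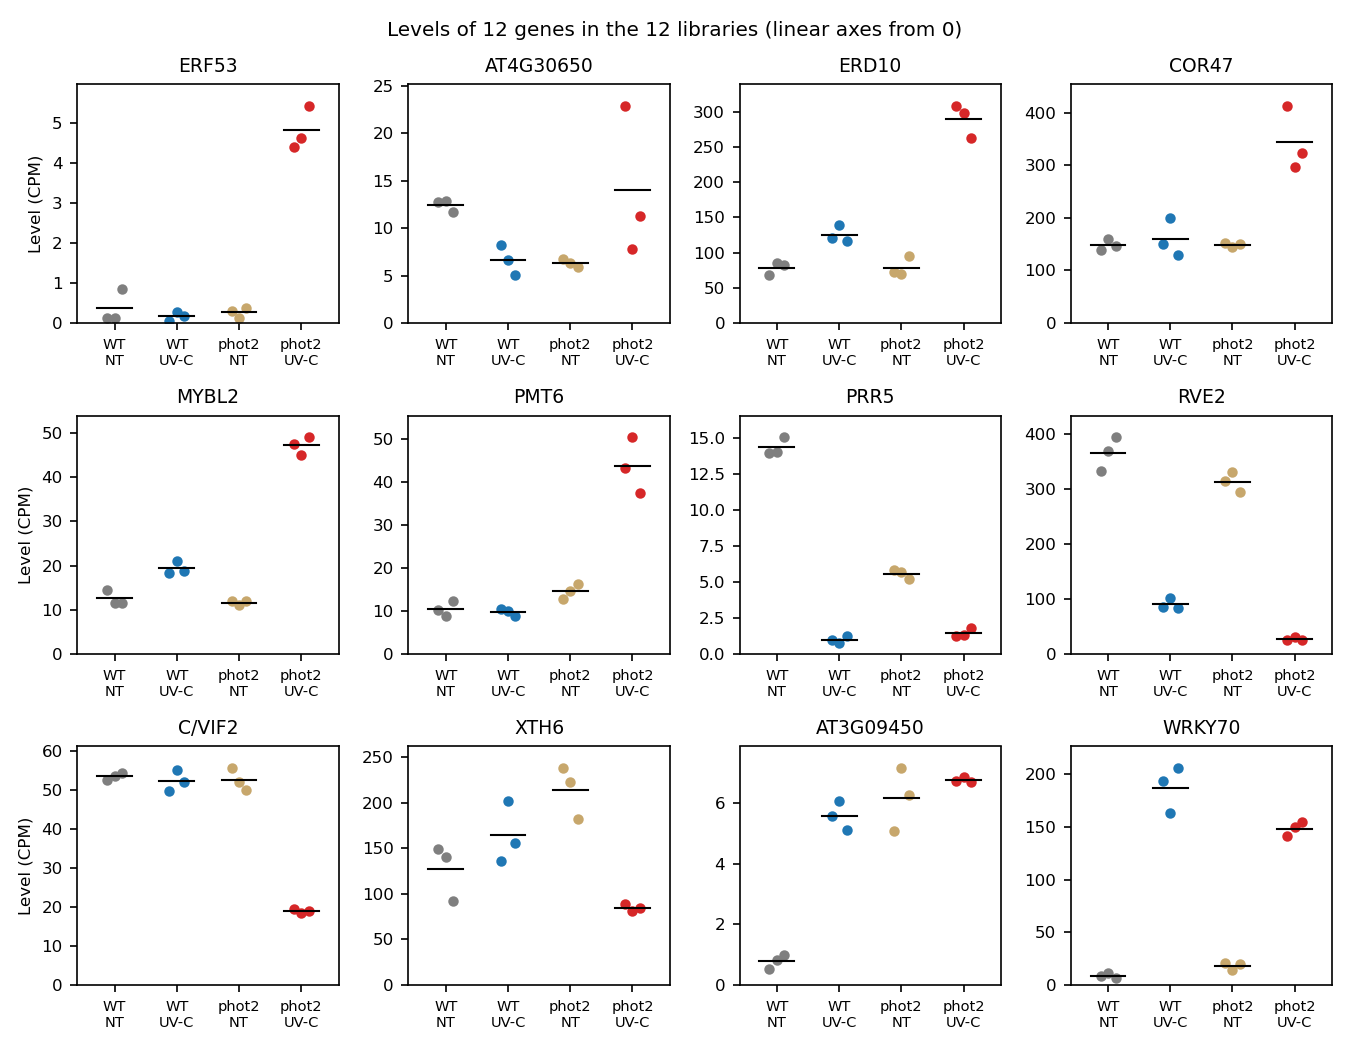
Level (CPM, linear axis from 0) of 12 genes in the 12 libraries, with 3 points a group and a line at the mean. In the panels of *ERF53*, *ERD10*, *COR47*, *MYBL2*, and *PMT6* the 3 *phot2* libraries after UV-C (red) lie above all others, and in those of *C/VIF2*, *RVE2*, and *XTH6* they lie below all others.

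*MYBL2* (AT1G71030, chromosome 1, 26795052 to 26796532) encodes a small MYB protein that represses anthocyanin synthesis. Its level was 14.5, 11.6, and 11.6 CPM in the non-treated wild type, 18.4, 21.1, and 18.8 CPM in the wild type after UV-C, 11.9, 11, and 11.9 CPM in non-treated *phot2*, and 47.5, 45, and 49 CPM in *phot2* after UV-C. The non-treated groups overlapped, the wild type after UV-C stood above them, and *phot2* after UV-C stood higher still, at least 45.03 CPM against at most 21.1 CPM. The interaction was called in every fit with 1 library left out (interaction log2FC 1.4, SE 0.15, edgeR adjusted p = 1.40e-05). The list of the UV-B and flavonoid pathway, which does not hold *MYBL2*, had 0 of 14 tested members called, with a median interaction of −0.17 on the log2 scale, and 5 members had an unadjusted p under 0.05. The shares over all tested genes were 0.368% called and 14.1% at an unadjusted p under 0.05. *MYB7* and *ERF9*, both of families of transcription factors, were also called higher, with 1.36 each as interaction log2FC.

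*PMT6* (AT4G36670, chromosome 4, 17287496 to 17289728), of a family of polyol and monosaccharide carriers, was at 10.3, 8.87, and 12.2 CPM in the non-treated wild type, 10.3, 9.94, and 8.93 CPM in the wild type after UV-C, 12.8, 14.7, and 16.3 CPM in non-treated *phot2*, and 43.3, 50.4, and 37.4 CPM in *phot2* after UV-C. The lowest *phot2* library after UV-C was at 37.4 CPM and the highest of the other 9 at 16.3 CPM (interaction log2FC 1.68, SE 0.21, edgeR adjusted p = 8.65e-05). *AT5G48900* (chromosome 5, 19825078 to 19829140), annotated as a pectin lyase-like protein, was at 17.8, 20.2, and 19.2 CPM in the non-treated wild type, 13.7, 16.6, and 12.9 CPM in the wild type after UV-C, 16.9, 18.6, and 17.1 CPM in non-treated *phot2*, and 38.8, 35.8, and 47.1 CPM in *phot2* after UV-C. Again *phot2* after UV-C lay above all other libraries (interaction log2FC 1.61, SE 0.16, edgeR adjusted p = 4.70e-06). *GLTP2*, annotated as a glycolipid transfer protein, was at 2.73 to 3.38 CPM in *phot2* after UV-C and at 0.606 to 1.29 CPM in the other 9 libraries (interaction log2FC 2.06, SE 0.33, edgeR adjusted p = 0.00136). The calls of these 3 genes held with each library left out.

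For some higher genes the wild type fell after UV-C, with a smaller or opposite effect in *phot2*. *AT5G43440* (chromosome 5, 17455233 to 17456695), annotated as a 2-oxoglutarate and Fe(II)-dependent oxygenase, was at 8.06, 9.47, and 8.13 CPM in the non-treated wild type, 2.48, 3.59, and 2.54 CPM in the wild type after UV-C, 5.44, 5.89, and 4.66 CPM in non-treated *phot2*, and 7.15, 8.26, and 7.0 CPM in *phot2* after UV-C. UV-C lowered it in the wild type (log2FC −1.57), with log2FC 0.48 in *phot2* (edgeR adjusted p = 0.00368), under the size limit for a call, and its 2 wild-type groups did not overlap. The interaction was called in each leave-one-out fit (interaction log2FC 2.05, SE 0.19, edgeR adjusted p = 4.70e-06), although 3 genes overlap it on the other strand and their reads cannot be told apart from its own. *TAA1* (AT1G70560, chromosome 1, 26604855 to 26607652), the aminotransferase that starts auxin synthesis from tryptophan, was at 17.8, 25.3, and 31.4 CPM in the non-treated wild type, 4.45, 3.5, and 3.8 CPM in the wild type after UV-C, 19.5, 18.6, and 20.3 CPM in non-treated *phot2*, and 8.1, 9.36, and 8.28 CPM in *phot2* after UV-C. UV-C lowered it in both genotypes (log2FC −2.66 and −1.18), less so in *phot2* (interaction log2FC 1.48, SE 0.30, edgeR adjusted p = 0.00712). This call remained only without non-treated wild-type replicate 1, over 1.28 to 1.67. Of the 21 tested Aux/IAA genes, which are repressors of auxin response, 0 were called, 8 had an unadjusted p under 0.05, and the median was 0.06. The shares over all tested genes were 0.368% called and 14.1% at an unadjusted p under 0.05.

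*AT5G26270* (uncharacterized, interaction log2FC 1.56, SE 0.31, edgeR adjusted p = 0.0063) and *AT5G06570* (an alpha/beta-hydrolase, interaction log2FC 1.37, SE 0.28, edgeR adjusted p = 0.00692) also fell in the wild type, with log2FC −2.25 and −1.1, and had log2FC −0.69 and 0.27 in *phot2*. The *phot2* effect of *AT5G26270* was under the size limit only (edgeR adjusted p = 0.00543), and that of *AT5G06570* had an edgeR adjusted p of 0.232. The call of *AT5G26270* remained only without non-treated wild-type replicate 2 or non-treated *phot2* replicate 3 (range 1.46 to 1.71), and 1 gene lies across from it on the other strand. That of *AT5G06570* remained only without non-treated or UV-C *phot2* replicate 3 (range 1.24 to 1.51). *CHX16*, a cation/H+ exchanger, was at 1.98 to 3.04 CPM in the wild type after UV-C and 7.94 to 11.8 CPM in *phot2* after UV-C (interaction log2FC 1.54, SE 0.27, edgeR adjusted p = 0.00228). It was lost without UV-C wild-type replicate 2 (range 1.37 to 1.78).

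Among the largest positive interactions were 3 further genes of low level. *AT1G11210*, annotated as a putative cotton fiber protein, was at 1.45, 1.56, and 1.22 CPM in the non-treated wild type, 0.562, 0.56, and 0.386 CPM in the wild type after UV-C, 0.45, 0.704, and 1.5 CPM in non-treated *phot2*, and 2.59, 2.94, and 1.32 CPM in *phot2* after UV-C. UV-C *phot2* replicate 3 was below non-treated *phot2* replicate 3, so that the *phot2* groups overlapped, and the call (interaction log2FC 2.84, SE 0.59, edgeR adjusted p = 0.00904) remained only without one or the other of these libraries (range 2.51 to 3.44). *AT2G01008* (chromosome 2, 1025 to 3173), at the tip of the chromosome, rose in both genotypes, to 1.59 to 2.15 CPM in the wild type and 5.08 to 8.71 CPM in *phot2* (interaction log2FC 2.08, SE 0.42, edgeR adjusted p = 0.00637). It remained called only without UV-C wild-type replicate 3, non-treated *phot2* replicate 1, or UV-C *phot2* replicate 3 (range 1.88 to 2.31). *AT3G46700*, a UDP-glycosyltransferase, was at 1.83 to 2.22 CPM in *phot2* after UV-C and at most 0.889 CPM elsewhere (interaction log2FC 2.0, SE 0.39, edgeR adjusted p = 0.00558), and remained called only without non-treated wild-type replicate 2, non-treated *phot2* replicate 1, or UV-C *phot2* replicate 3 (range 1.82 to 2.18).

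Genes of the circadian clock, the transcriptional loop that times physiology to the day, were called in both directions. The hour of harvest of the groups is not given. For these genes a difference in hour between groups cannot be told apart from an effect of UV-C or genotype, and was not tested. *PRR5* (AT5G24470, chromosome 5, 8356204 to 8358546), a repressor of the morning genes, was at 13.9, 14, and 15.1 CPM in the non-treated wild type, 0.983, 0.746, and 1.27 CPM in the wild type after UV-C, 5.83, 5.68, and 5.22 CPM in non-treated *phot2*, and 1.27, 1.34, and 1.79 CPM in *phot2* after UV-C. It was lower in *phot2* than in the wild type before treatment (log2FC −1.36, edgeR adjusted p = 5.76e-05) and fell after UV-C in both, by 3.85 on the log2 scale in the wild type and by 1.91 in *phot2*. After UV-C the 2 genotypes stood close together, their ranges touching at 1.27 CPM without overlap. The interaction was positive (interaction log2FC 1.95, SE 0.35, edgeR adjusted p = 0.00329) and was lost without UV-C wild-type replicate 1 or 2 or UV-C *phot2* replicate 3, over 1.77 to 2.14.

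*PRR3* (AT5G60100, chromosome 5, 24197971 to 24201415), which belongs to the same family and stabilizes TOC1 protein, went the other way. It was at 12.8, 13.1, and 13.3 CPM in the non-treated wild type, 4.21, 3.83, and 4.3 CPM in the wild type after UV-C, 8.73, 8.28, and 7.57 CPM in non-treated *phot2*, and 0.741, 0.896, and 1.24 CPM in *phot2* after UV-C. Every group stood apart from the others, and the *phot2* libraries after UV-C were the lowest. UV-C lowered it in both genotypes, with log2FC −1.67 and −3.07, and more so in *phot2* (interaction log2FC −1.4, SE 0.23, edgeR adjusted p = 0.0017). *RVE2* (AT5G37260, chromosome 5, 14751344 to 14753088), a MYB-like protein related to the morning factors, was at 333, 371, and 395 CPM in the non-treated wild type, 86.3, 101, and 83.4 CPM in the wild type after UV-C, 315, 331, and 295 CPM in non-treated *phot2*, and 25.7, 31, and 26.2 CPM in *phot2* after UV-C. The non-treated ranges, 295 to 331 CPM in *phot2* and 333 to 395 CPM in the wild type, did not overlap. After UV-C *phot2* was below the wild type, at 25.68 to 31 against 83.4 to 101 CPM (interaction log2FC −1.49, SE 0.17, edgeR adjusted p = 3.11e-05). *PRR3* and *RVE2* were called in all 12 leave-one-out fits.

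*LHY* (AT1G01060, chromosome 1, 33365 to 37871), a morning MYB factor, was at 293, 309, and 441 CPM in the non-treated wild type, 674, 695, and 664 CPM in the wild type after UV-C, 627, 681, and 746 CPM in non-treated *phot2*, and 656, 589, and 692 CPM in *phot2* after UV-C. The non-treated wild type stood below the other 9 libraries, which overlapped each other. The UV-C effect was log2FC 0.96 in the wild type, under the size limit, and −0.08 in *phot2*, and the difference was called (interaction log2FC −1.05, SE 0.16, edgeR adjusted p = 0.00066). The call was lost without non-treated wild-type replicate 1 or 2, non-treated *phot2* replicate 3, or UV-C *phot2* replicate 2 (range −1.26 to −0.94). Its partner *CCA1* had a similar course of means, 184 and 381 CPM in the wild type and 429.8 and 449 CPM in *phot2*, and did not pass (interaction log2FC −0.99, SE 0.34, edgeR adjusted p = 0.136). The list of morning genes had 1 of 11 called (*LHY*, lower), 6 at an unadjusted p under 0.05, and a median of −0.27. The list of evening genes had 2 of 12 called (*PRR5* and *PRR3*), 8 at an unadjusted p under 0.05, and a median of 0.07. The shares over all tested genes were 0.368% called and 14.1% at an unadjusted p under 0.05.

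Among the genes with a lower UV-C effect in *phot2*, *C/VIF2* (AT5G64620, chromosome 5, 25831635 to 25832731) had the smallest adjusted p of the whole comparison. It encodes an inhibitor of invertases, the enzymes that split sucrose. Its level was 52.5, 53.6, and 54.3 CPM in the non-treated wild type, 49.6, 55, and 52 CPM in the wild type after UV-C, 55.5, 52, and 49.9 CPM in non-treated *phot2*, and 19.5, 18.4, and 19 CPM in *phot2* after UV-C. The other 3 groups shared the same range of 49.6 to 55.5 CPM, and only *phot2* after UV-C left it, down to 18.4 to 19.5 CPM. UV-C had no detectable effect in the wild type (log2FC −0.04, SE 0.07) and lowered the transcript in *phot2* (log2FC −1.47, SE 0.08), and the interaction was called in all leave-one-out fits (interaction log2FC −1.43, SE 0.11, edgeR adjusted p = 1.59e-07).

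*XTH6* (AT5G65730, chromosome 5, 26298728 to 26300529), of the enzymes that cut and rejoin xyloglucan, was at 149, 141, and 91.8 CPM in the non-treated wild type, 137, 202, and 156 CPM in the wild type after UV-C, 238, 223, and 183 CPM in non-treated *phot2*, and 88.8, 80.9, and 84.8 CPM in *phot2* after UV-C. In non-treated plants *phot2* was above the wild type, and after UV-C it was below it, without overlap either time (interaction log2FC −1.71, SE 0.28, edgeR adjusted p = 0.0016). Neither gap was called by itself (log2FC 0.75, edgeR adjusted p = 0.0265 before UV-C, and −0.96, edgeR adjusted p = 0.00213 after it). *GATL6*, of a family that makes wall polysaccharides, was at 18.96 to 19.43 CPM in *phot2* after UV-C against 32.53 to 48.31 CPM in the other 9 libraries (interaction log2FC −1.39, SE 0.24, edgeR adjusted p = 0.0019). *XYL4*, a beta-xylosidase, was at 20.8 to 28.7 CPM in *phot2* after UV-C and 44.03 to 54.45 CPM in the wild type after UV-C (interaction log2FC −1.32, SE 0.16, edgeR adjusted p = 6.56e-05). The last 2 each overlap a gene on the other strand. All 3 were called in every leave-one-out fit. The XTH family had 1 of 22 tested members called (*XTH6*), 9 at an unadjusted p under 0.05, 16 negative, and a median interaction of −0.32. The shares over all tested genes were 0.368% called and 14.1% at an unadjusted p under 0.05. The called genes annotated as a pectin lyase-like protein, *AT5G48900* at 1.61, and as a pectin methylesterase, *PME61* at 1.23, were higher in *phot2*. The call of *PME61* remained in 6 of the 12 leave-one-out fits (range 1.11 to 1.39).

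*ERD5* (AT3G30775, chromosome 3, 12448636 to 12451556), the proline dehydrogenase of mitochondria, was at 83.8, 80.1, and 57.1 CPM in the non-treated wild type, 197, 164, and 246 CPM in the wild type after UV-C, 123, 119, and 85.7 CPM in non-treated *phot2*, and 111, 70.2, and 105 CPM in *phot2* after UV-C. It rose after UV-C in the wild type (log2FC 1.46) and not detectably in *phot2* (log2FC −0.20, interaction log2FC −1.65, SE 0.31, edgeR adjusted p = 0.00392). The call was lost without non-treated wild-type replicate 3, UV-C wild-type replicate 1 or 3, non-treated *phot2* replicate 1 or 2, or UV-C *phot2* replicate 2 (range −1.8 to −1.47). *LYK3*, a receptor kinase with LysM domains, fell in *phot2* from 38.3 to 43.9 CPM to 8.71 to 11.5 CPM, and was at 31.99 to 43 CPM and 22.87 to 24.96 CPM in the wild type before and after UV-C (interaction log2FC −1.38, SE 0.20, edgeR adjusted p = 0.000502), and was called each time. *MEE47*, of unknown function, was at 6.79 to 8.61 CPM in *phot2* after UV-C and at least 15.2 CPM elsewhere (interaction log2FC −1.42, SE 0.27, edgeR adjusted p = 0.00386). It was lost without UV-C wild-type replicate 2 or 3, non-treated *phot2* replicate 1 or 2, or UV-C *phot2* replicate 1 or 3 (range −1.57 to −1.23).

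A last set of lower genes differed before the treatment. *AT3G09450* (chromosome 3, 2907479 to 2910206), annotated as a protein of the fusaric acid resistance family, was at 0.543, 0.82, and 1.0 CPM in the non-treated wild type, 5.57, 6.06, and 5.13 CPM in the wild type after UV-C, 5.08, 7.16, and 6.27 CPM in non-treated *phot2*, and 6.72, 6.87, and 6.7 CPM in *phot2* after UV-C. It was already higher in non-treated *phot2* (log2FC 2.98, edgeR adjusted p = 2.14e-07). UV-C raised the wild type to nearly the same level (log2FC 2.84) while the effect in *phot2* did not pass (log2FC 0.13), and the difference was called each time (interaction log2FC −2.71, SE 0.34, edgeR adjusted p = 8.82e-05).

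*WRKY70* (AT3G56400, chromosome 3, 20908711 to 20910623), a factor of salicylic acid signaling, was at 8.38, 11.5, and 6.67 CPM in the non-treated wild type, 194, 163, and 206 CPM in the wild type after UV-C, 20.8, 14, and 20.3 CPM in non-treated *phot2*, and 141, 150, and 154 CPM in *phot2* after UV-C. It rose in both genotypes (log2FC 4.4 and 3.02) from a higher start in *phot2*, which lay above the wild type before UV-C (log2FC 1.05). After UV-C the *phot2* range lay below that of the wild type without overlap, as ranges did not overlap in 29.5% of all tested genes. That difference did not pass the test (log2FC −0.34, edgeR adjusted p = 0.219). The interaction (interaction log2FC −1.38, SE 0.27, edgeR adjusted p = 0.00511) remained called only without non-treated wild-type replicate 2, UV-C wild-type replicate 2, non-treated *phot2* replicate 2, or UV-C *phot2* replicate 3 (range −1.62 to −1.22). Of 56 tested WRKY genes, *WRKY70* alone was called, 15 had an unadjusted p under 0.05, and the median was 0.06 (0.09 with 1 gene of at most 3 reads set to 3). The list of salicylic acid and cell death genes had 0 of 17 called, 5 at an unadjusted p under 0.05, and a median of −0.22. The shares over all tested genes were 0.368% called and 14.1% at an unadjusted p under 0.05.

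*AT5G39670*, annotated as a calcium-binding EF-hand protein, and *AT2G20142*, with a TIR domain as in immune receptors, were also at higher levels in non-treated *phot2* than in the non-treated wild type. *AT5G39670* was at 0.611, 0.82, and 0.732 CPM in the non-treated wild type, 37.8, 34.7, and 35.7 CPM in the wild type after UV-C, 1.6, 1.74, and 4.33 CPM in non-treated *phot2*, and 33.7, 29.7, and 30.7 CPM in *phot2* after UV-C. The *phot2* libraries were above the wild type before UV-C (log2FC 1.8, edgeR adjusted p = 0.00189). After UV-C their difference did not pass the test (log2FC −0.20, edgeR adjusted p = 0.516), although the ranges lay apart, as in 29.5% of all tested genes. The interaction (interaction log2FC −2.01, SE 0.38, edgeR adjusted p = 0.00392) was lost without non-treated wild-type replicate 1 or 3, UV-C wild-type replicate 1, or UV-C *phot2* replicate 2 (range −2.26 to −1.41). On the other strand 2 genes overlap *AT5G39670*. *AT2G20142* was at 0.611 to 0.919 CPM in the wild type and 1.82 to 3.52 CPM in *phot2* before UV-C, and at 15.2 to 25.7 CPM in both after it (interaction log2FC −2.0, SE 0.36, edgeR adjusted p = 0.00289). *AT1G72900*, also with a TIR domain, had an interaction log2FC of −1.36 (SE 0.25, edgeR adjusted p = 0.00326). *AT2G20142* and *AT1G72900* lost the call without non-treated wild-type replicate 1 or 3 (ranges −2.21 to −1.68 and −1.58 to −1.15). The called gene *AT3G04210*, annotated as a TIR-NBS disease resistance protein (interaction log2FC −1.06), remained called in 2 of the 12 leave-one-out fits.

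*AT5G09876*, uncharacterized, had the most negative fitted value (interaction log2FC −3.37, SE 0.70, edgeR adjusted p = 0.00878), but the non-treated wild type held 0, 1, and 2 reads. With this group set to 3 reads in each library, UV-C raised the gene at least 68.1-fold in the wild type, against 17.42-fold in *phot2*, from 6 to 12 reads to 61 to 77 reads. On that scale the interaction is −1.97 or lower. The fitted call was lost with any of the 12 libraries left out.

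**Figure D3:**
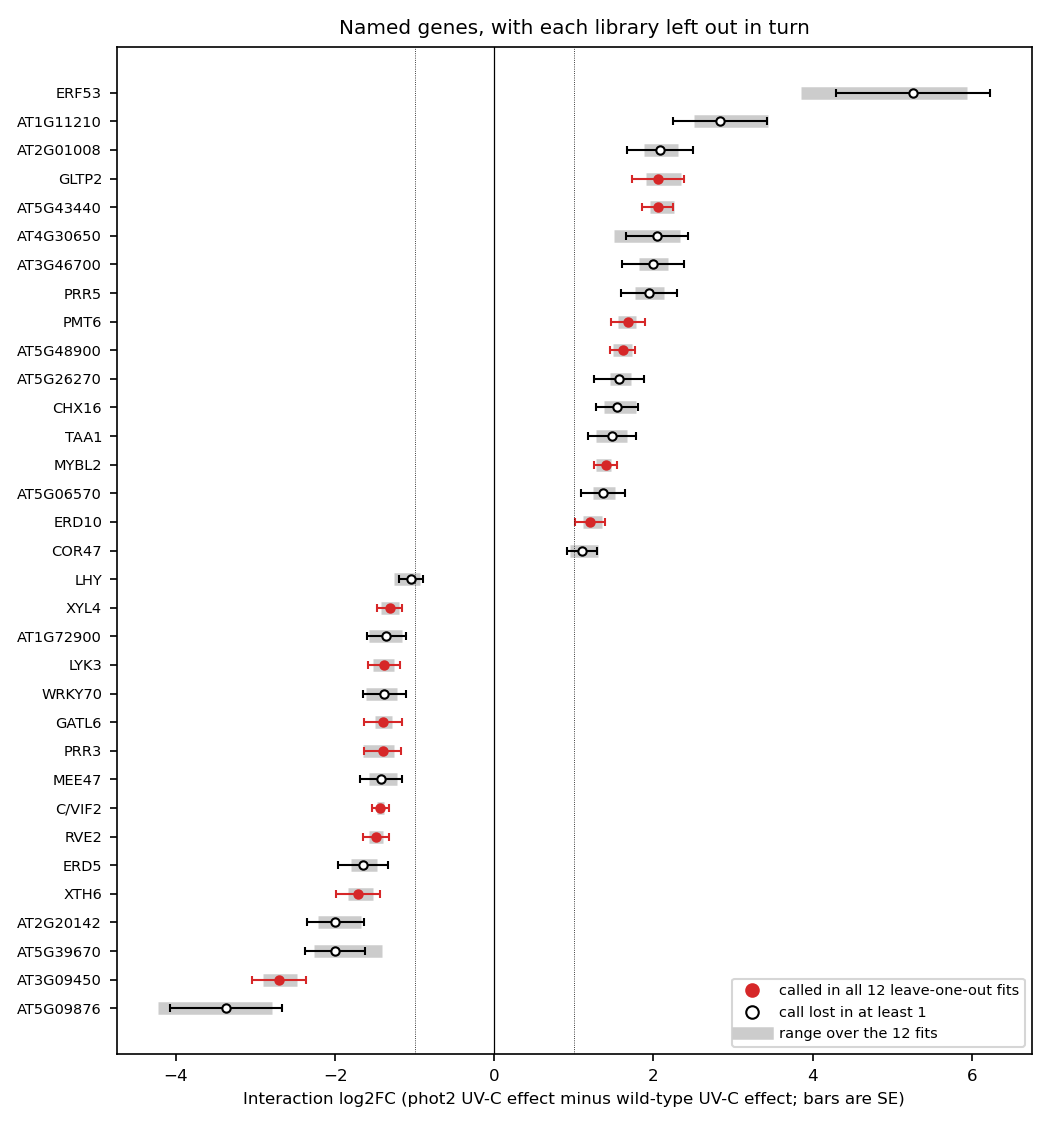
Interaction log2FC (UV-C effect in *phot2* minus that in the wild type) of the 33 named genes with its SE, and as a grey bar the range with each of the 12 libraries left out in turn. Filled red points mark genes called in all 12 of these fits, such as *C/VIF2* at −1.43, and open points those that lost the call at least once, such as *ERF53* at 5.27.

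Several lists of rapid stress factors had mostly negative interactions and no called member. Of all tested genes 0.368% were called, and 14.1% had an unadjusted p under 0.05. All 10 tested ZAT and AZF zinc finger genes had a negative interaction, with a median of −0.77 on the log2 scale, 0 called, and 4 at an unadjusted p under 0.05. Their median UV-C effect was 5.21 in the wild type and 4.02 in *phot2*, and their median difference between *phot2* and the wild type was 0.79 before UV-C and −0.03 after it. *ZAT6* went from a mean of 3.14 to 103 CPM in the wild type and from 4.98 to 89 CPM in *phot2* (interaction log2FC −0.86, SE 0.27, edgeR adjusted p = 0.0985). For the ethylene response factors, 13 of 14 were negative, 0 called, 3 at an unadjusted p under 0.05, with a median of −0.64 (−0.45 with 1 gene of at most 3 reads set to 3). For the touch and calmodulin-like genes, 6 of 7 were negative, 0 called, 2 at an unadjusted p under 0.05, with a median of −0.69 (−0.23 so set).

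The list of phototropin partners and chloroplast movement genes had 0 of 16 called, 3 at an unadjusted p under 0.05, and a median interaction of −0.05. The largest of these was *NPH3*, the phototropism scaffold, at means of 32.4 and 23.9 CPM in the wild type and 28.7 and 32.7 CPM in *phot2* (interaction log2FC 0.62, SE 0.16, edgeR adjusted p = 0.0337). Among light-harvesting antenna genes 14 of 17 were negative, with 0 called, 5 at an unadjusted p under 0.05, and a median of −0.13. Heat shock genes had 0 of 13 called, 3 at an unadjusted p under 0.05, and a median of −0.22. DNA damage genes had 0 of 12, 2, and −0.14, antioxidant enzymes 0 of 14, 2, and 0.02, and jasmonate genes 0 of 25, 2, and −0.19. Cysteine-rich receptor-like kinases had 0 of 29, 3, and 0.17, SAUR genes 0 of 15, 1, and −0.10, and dark and sugar starvation genes 0 of 10, 4, and −0.11. Abscisic acid genes had 0 of 11, 0, and 0.19 (−0.10 with 1 gene of at most 3 reads set to 3). In all, 17 of the 23 lists had no called member. Over all tested genes 0.368% were called and 14.1% had an unadjusted p under 0.05. At that share of calls most lists of these sizes would hold none, so 0 called tells little about a list.

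**Figure D4:**
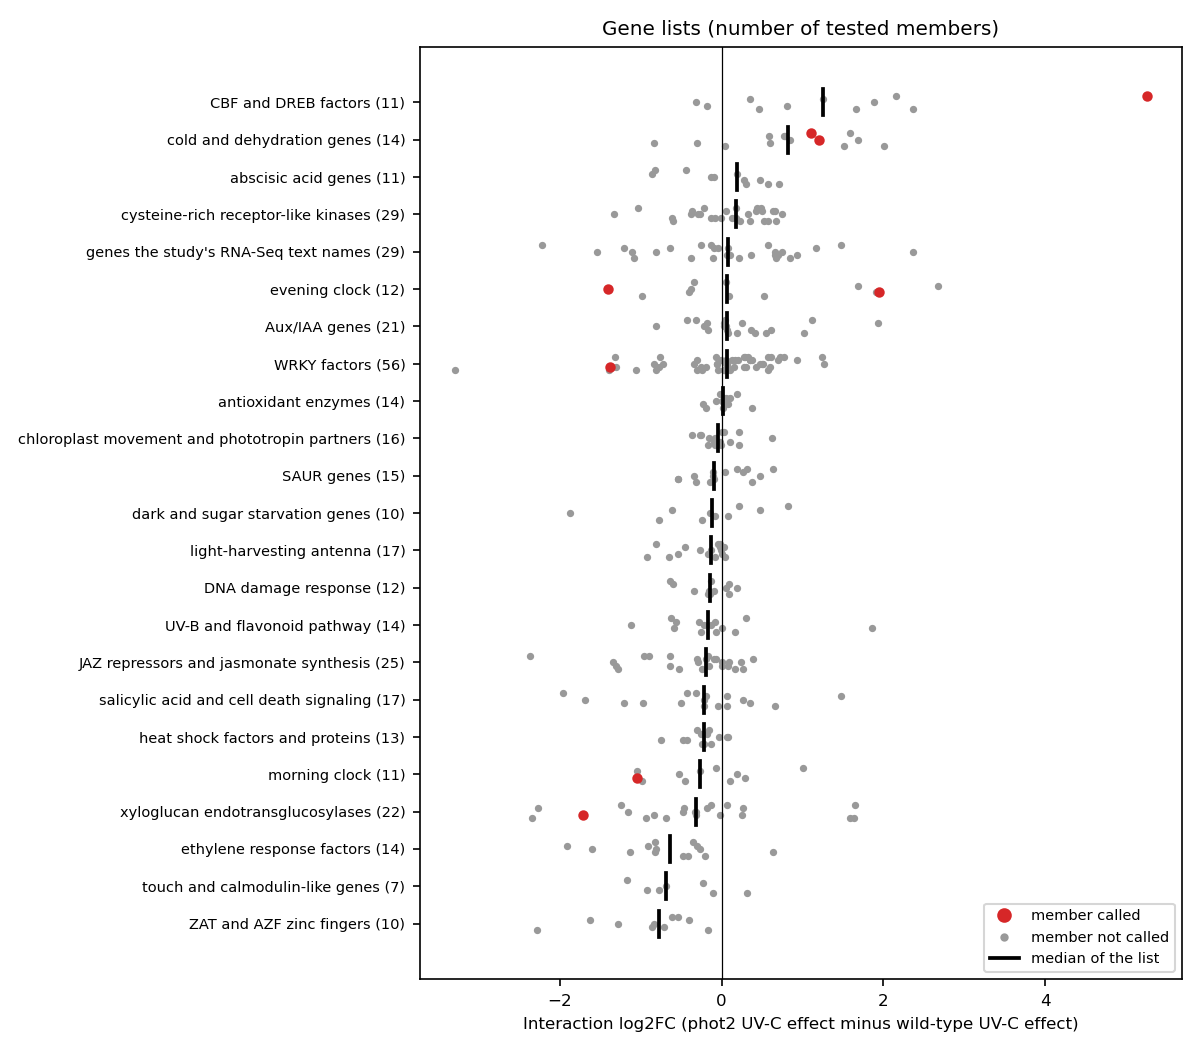
Interaction log2FC of the tested members of 23 gene lists, 1 point a gene, with the number of tested members in parentheses and a black line at the median. The CBF and DREB list (1.25) and the cold and dehydration list (0.82) have the highest medians, and the ZAT and AZF list (−0.77) the lowest. Red points are called genes.

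A list of 29 genes held those that the RNA-Seq text of the study names with an identifier, with *PHOT1* and *PHOT2* added. The LHCB genes named there without an identifier are in the antenna list. The study names them for differences between mutant and wild type, not for an interaction. Of the 29, 0 were called for this interaction (0.368% of all tested genes), and 11 had an unadjusted p under 0.05 (14.1%). The genes named with an identifier were picked on the same libraries, so they are no independent sample. *ACD6*, a membrane protein of cell death control, fell from a mean of 50.5 to 12.7 CPM in the wild type and went from 78.8 to 55.1 CPM in *phot2* (interaction log2FC 1.48, edgeR adjusted p = 0.0184). *OXI1*, a kinase of oxidative signaling, rose from 0.185 to 14 CPM and from 0.727 to 11.6 CPM (interaction log2FC −2.23, edgeR adjusted p = 0.0589). *PIF4*, a growth regulator of light signaling, had an interaction log2FC of 0.74, *GOLS2* (galactinol synthase) 0.85, *NAP* (a senescence factor) 0.69, and *AT1G52200* 0.93. Negative values were those of *BCH2* (beta-carotene hydroxylase) at −0.81, *GLR1.2* (a glutamate receptor-like channel) at −1.54, *ATL78* at −1.11, and *AT3G54510* at −1.21. *ERF54*, given above, is the last of the 11.

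The UV-C effect in *phot2* was also set against that in the other mutants. Against *phot1phot2*, 9 genes were called (0.0448%), all lower in *phot2*, and against *phot1* 9 (0.0448%), all higher in *phot2*. The calls of other tools went in both directions. Against *phot1phot2*, 21 were higher and 30 lower in a likelihood ratio test, and 3 higher and 14 lower in DESeq2. Against *phot1*, 38 were higher and 13 lower in the likelihood ratio test, and 21 higher and 2 lower in DESeq2. These comparisons use the same *phot2* libraries by which the 40 higher and 34 lower genes were picked. This tilts the differences of those genes toward the direction of their call. Of the 40 higher genes, 5 had a higher UV-C effect in *phot2* than in *phot1*. They were *MYBL2* (log2FC of the difference 1.38, SE 0.14, edgeR adjusted p = 3.95e-05), *COR47* (1.35, SE 0.19, edgeR adjusted p = 0.00192), *FP6*, a farnesylated protein (1.15, SE 0.16, edgeR adjusted p = 0.00192), *ERD10* (1.06, SE 0.18, edgeR adjusted p = 0.00913), and *AT4G30650* (2.4, SE 0.41, edgeR adjusted p = 0.00775). Another 2 were lower in *phot2* than in *phot1phot2*, *TIP2;2*, a water channel of the tonoplast (−1.78, SE 0.18, edgeR adjusted p = 2.93e-05), and *AT3G05640*, a protein phosphatase 2C (−1.38, SE 0.24, edgeR adjusted p = 0.00793). None of the 34 lower genes was called in either comparison.

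The same difference from the wild type can be given for each mutant, with the wild-type libraries shared by all 3. For *ERF53* it was 5.27 in *phot2*, 6.21 in *phot1phot2*, and 3.08 in *phot1*, and the value in *phot1* did not pass the test. For *MYBL2* it was 1.4, 1.66, and 0.02, and for *ERD10* 1.2, 1.64, and 0.14. *C/VIF2* had −1.43, −1.54, and −0.75, and *RVE2* −1.49, −1.82, and −0.59. *AT3G46700* had 2.0 in *phot2*, −0.12 in *phot1phot2*, and 1.48 in *phot1*. In *phot1*, only *AT2G01008* was called over all tested genes (log2FC 2.91, SE 0.42, edgeR adjusted p = 0.00423, 0.00498% of the tested genes).

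**Figure D5:**
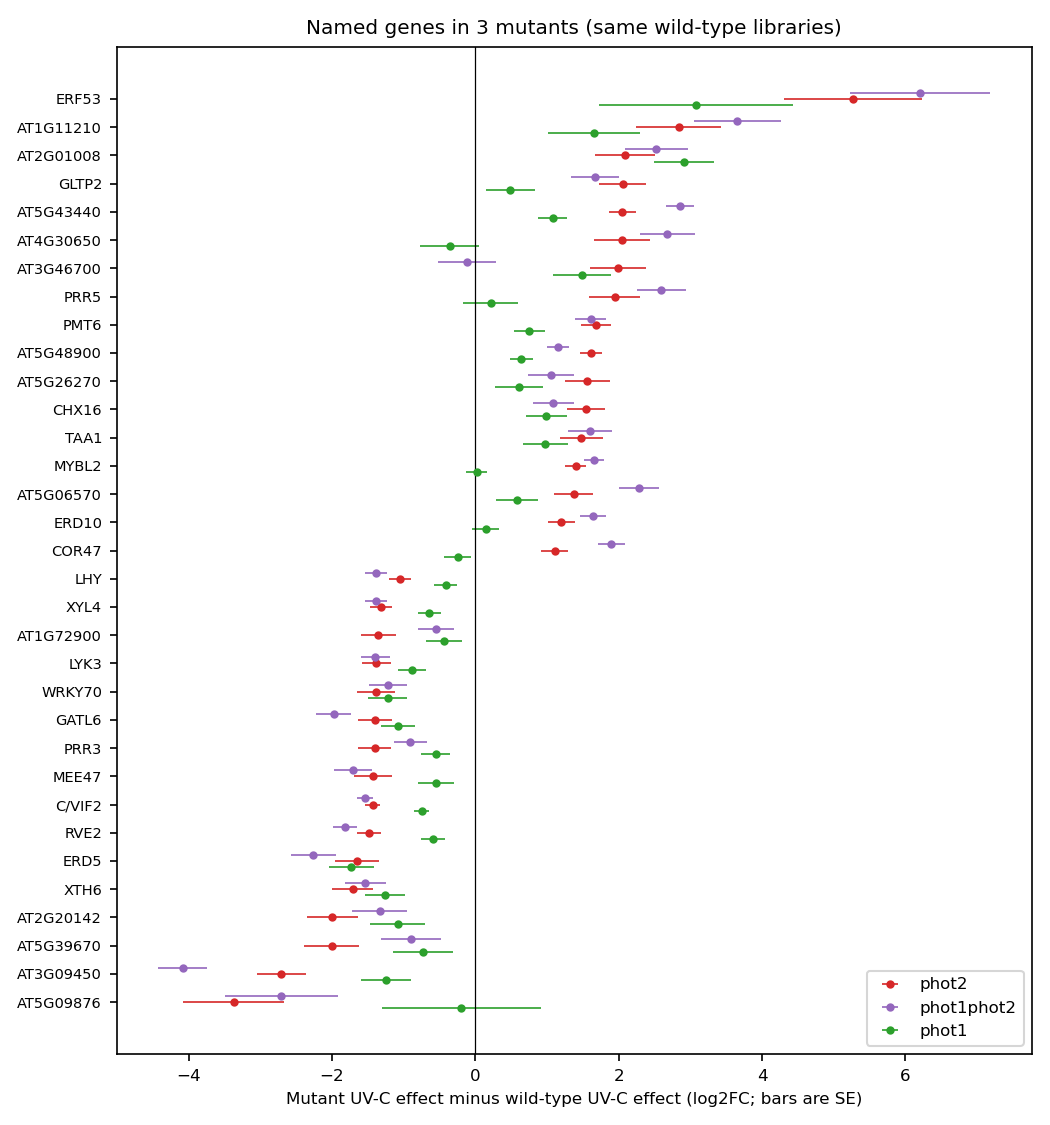
Difference of the UV-C effect from that of the wild type (log2FC with its SE) of the 33 named genes in *phot2*, *phot1phot2*, and *phot1*. The 3 mutants share the wild-type libraries, so their points are not independent. *MYBL2* is at 1.4 in *phot2*, 1.66 in *phot1phot2*, and 0.02 in *phot1*.

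The position of *PHOT2* and the cell type markers were looked at last. Within 2 Mb of *PHOT2*, 1 of 870 tested genes was called for the interaction (0.115%, against 0.368% of all). None of the 13 tested markers of mesophyll, epidermis, guard cell, phloem, and flower was called. The summed guard cell markers were at 32.2 to 37.9 CPM in the non-treated wild type, 18.16 to 21.72 CPM in it after UV-C, 31.8 to 33.7 CPM in non-treated *phot2*, and 24.4 to 26.4 CPM in *phot2* after UV-C. After UV-C the sums did not overlap, and of the 3 markers *KAT1* alone stood apart, at 9.1 to 9.98 CPM in the wild type and 12.5 to 14.6 CPM in *phot2*. *MYB60* (6.7 to 10.3 and 7.85 to 12.3 CPM) and *HT1* (1.73 to 1.98 and 1.54 to 2.01 CPM) overlapped. The part of guard cell RNA in the called genes was not tested. The summed epidermis markers were at 339 to 389 CPM in the wild type and 325 to 401 CPM in *phot2* after UV-C.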

How the data were processed

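Per the study's methods, poly-A mRNA was purified from total RNA of whole rosettes and sequenced from libraries of a stranded kit. Per the labels and the methods, the authors aligned reads with STAR 2.5.2b. They counted them on Araport11 exons with featureCounts of Subread 1.6.2, without strand and without multi-mapped reads. The deposited values are raw counts per gene. The 24 libraries (8 groups of 3) were fitted together in edgeR 4.0.16 (R 4.3.3, limma 3.58.1) with TMM scaling, a group model, and quasi-likelihood tests, over protein-coding genes that had 5 or more reads in 6 or more libraries. Calls needed an absolute log2FC above 1 and a p, after Benjamini-Hochberg adjustment, below 0.01. DESeq2 1.42.0 and other filters, scalings, and designs served as alternatives, with each library left out in turn. The pipeline was tested on simulated data.

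The 33 genes described singly were the 15 called genes with the largest interaction in each direction among those with a mean of at least 2 CPM in 1 or more groups, and called members of the gene lists. Beside them stand *PHOT2*, *PHOT1*, and the genes the study names with an unadjusted p under 0.05. Other list members were named after their values were seen. The members and lists were chosen with earlier results of these data known. The sources call the replicates biological without saying whether they were grown apart, so p-values measure the spread between these samples. Promoters were read from the TAIR10.1 genome. Plots were made with matplotlib 3.10.9. Counts without strand cannot separate overlapping genes.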

Additional observations from a re-analysis of the deposited data

Results flagged for a closer look

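The 74 genes whose UV-C effect differed between the genotypes are all listed here, since the difference itself was tested, by the interaction term. The values are interaction log2FC, the UV-C effect in *phot2* minus that in the wild type. Groups of 3 libraries are too small for a test of single libraries that stand apart. The genes outside the naming rule were chosen after their values were seen, and the annotation of each comes from the reference.

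Transcription factors and clock genes with a higher effect in *phot2* were *ERF53* at 5.27, *PRR5* at 1.95, *MYBL2* at 1.4, *MYB7* at 1.36, *ERF9* at 1.36, and *TGA3* at 1.33. Genes of cold, salt, and dehydration were *AT4G30650* at 2.04, *ERD10* at 1.2, and *COR47* at 1.11. Carriers and channels were *GLTP2* at 2.06, *PMT6* at 1.68, *CHX16* at 1.54, *LHT1* at 1.35, and *TIP2;2* at 1.11, of which *LHT1* takes up amino acids. Enzymes of hormones and secondary metabolism were *AT5G43440* at 2.05, *AT3G46700* at 2.0, *TAA1* at 1.48, *ROT3* at 1.35, *CYP71B26* at 1.34, *CYP706A6* at 1.18, and *IGMT1* at 1.06, of which *ROT3* is a cytochrome P450 of brassinosteroid metabolism. Other enzymes and wall proteins were *AT5G48900* at 1.61, *AT5G06570* at 1.37, *DES1* at 1.34, *AT3G05640* at 1.31, *AT2G39400* at 1.3, *PME61* at 1.23, *AT1G33970* at 1.16, *AT1G01500* at 1.09, and *LACS3* at 1.04, of which *DES1* is annotated as an L-cysteine desulfhydrase and *PME61* as a pectin methylesterase. The remaining higher genes were *AT1G11210* at 2.84, *AT2G01008* at 2.08, *AT5G26270* at 1.56, *FP6* at 1.3, *AT2G28720* at 1.26, *AT3G10020* at 1.12, *AT1G30250* at 1.11, *AT3G20370* at 1.07, and *AT4G21215* at 1.07, and *AT5G37600* at 1.0.

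Transcription factors and clock genes with a lower effect in *phot2* were *RVE2* at −1.49, *PRR3* at −1.4, *LHY* at −1.05, *WRKY70* at −1.38, and *SIB1* at −1.32, the last annotated as a sigma factor binding protein. Genes annotated for defense, calcium, or receptors were *AT5G39670* at −2.01, *AT2G20142* at −2.0, *LYK3* at −1.38, *AT1G72900* at −1.36, *AT3G04210* at −1.06, and *CIPK15* at −1.12. Cell wall genes were *XTH6* at −1.71, *GATL6* at −1.39, *XYL4* at −1.32, and *AGP41* at −1.02. Genes of sugars and amino acids were *C/VIF2* at −1.43, *ERD5* at −1.65, *ATTPPA* at −1.3, and *SWEET12* at −1.08, of which *SWEET12* exports sucrose. Other enzymes and chaperones were *MES7* at −1.21, *UGT85A1* at −1.14, *FAH1* at −1.11, *AT1G77020* at −1.15, and *AT4G21870* at −1.06. The remaining lower genes were *AT5G09876* at −3.37, *AT3G09450* at −2.71, *MEE47* at −1.42, *AT5G03553* at −1.3, *AT4G28085* at −1.22, *Cand1* at −1.14, *AT2G34510* at −1.09, *AT1G62500* at −1.07, *AT1G02816* at −1.07, and *AT3G07470* at −1.03.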

How the results depend on the processing

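All 74 genes kept their direction under every alternative tried. The interactions of *PHOT2*, *PHOT1*, and *CBF2* were not refitted as results of their own. The count of 74 moved to 217 with a likelihood ratio test and robust dispersions (81 higher and 136 lower, 72 shared), to 133 with DESeq2 (57 higher and 76 lower, 73 shared), and to 0 with glmTreat, which tests against a log2 fold change of 1 (179 genes at an unadjusted p under 0.05, also of that test). Of these, the likelihood ratio test with robust dispersions is the kind the study's methods name, and the quasi-likelihood test was used here in its place. Leaving out 1 library at a time gave 46 to 75 genes. Under the same 4 alternatives in this order, *phot2* against the wild type without treatment had 350, 254, 5, and 69 to 200 genes, and the UV-C effect in *phot2* had 51, 17, 0, and 4 to 12 against *phot1phot2* and 51, 23, 0, and 3 to 11 against *phot1*. glmTreat gave 736 genes for UV-C in the wild type, 728 in *phot2*, and 18 for the genotypes after UV-C, where leaving out a library gave 263 to 429. RLE scaling (76), the 12 libraries alone (75, 61 shared), no filter on low counts (82), and a limit of 20 reads (74) stayed within 1.5 times.

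Libraries with the same title number did not clearly deviate together (12 correlations of −0.13 to 0.16, 2 over 0.1). This gave no sign of pairing by title number and cannot exclude it. The numbers in the library names were not correlated in this way. With the title number as replicate block 86 genes were called (72 shared), and with the number of the library name, chosen after seeing the data, 51 (44 shared). *ERF53* had 1 to 31 reads in 9 libraries and *AT5G09876* 0 to 2 in the non-treated wild type, which limits their values, and the cause of the changed counts was not tested.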
